A study of Mus musculus with 4 samples.

Results

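Bone morphogenetic protein (BMP) signalling was followed through 9 genes in sorted mesenchymal cells of the mouse heart: the ligands Bmp2, Bmp4 and Bmp6, the secreted antagonist Grem1, the inhibitory SMADs Smad6 and Smad7, and the target genes Id1, Id2 and Id3. The genes were chosen by symbol, and all 9 were found, each as 1 of the 28001 features shared by the 4 droplet libraries. BMP ligands bind pairs of type I and type II serine/threonine kinase receptors, which phosphorylate SMAD1, SMAD5 and SMAD9. These join SMAD4 in the nucleus and switch on early targets, above all the Id genes, whose products are helix-loop-helix proteins without a DNA-binding region that hold E proteins away from DNA. Smad6 and Smad7 are also targets of the signal and feed back on the receptors, Smad6 mainly on the BMP branch and Smad7 on both the BMP and TGF-beta branches. In the heart, BMP signals are known for their part in valve and chamber formation and are studied in fibrosis after infarction.

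All mice were on a C57BL/6 background, and their ages are not given in the sources used here. One library came from Hic1 CreERT2 tdTomato mice, sorted for tdTomato+ cells 7 days after ligation of the left anterior descending coronary artery (LAD), a model of myocardial infarction, from 3 hearts pooled in 1 sample. Another held cells of 4 mice with a nuclear GFP under the Pdgfra gene (PDGFRa H2BGFP, strain B6.129S4-Pdgfratm11(EGFP)Sor/J), 2 undamaged and 2 at 7 days after ligation, marked with antibody hashtags and run together. Undamaged hearts gave the remaining libraries, 1 from 3 pooled Hic1 CreERT2 tdTomato hearts sorted in the same way, and 1 of Hic1 Citrine+ cells from 3 hashed hearts. The tdTomato label stays in cells that expressed Hic1 when Cre was induced and in their progeny. Citrine follows present Hic1 expression, and GFP marks cells with an active Pdgfra gene. The labels do not say which PDGFRa hashtags belong to ligated hearts, so those hearts are given 1 by 1 and not compared by condition.

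After filtering, 4263 cells of the ligated tdTomato library, 12567 of the PDGFRa library, 2786 of the undamaged tdTomato library and 10838 of the citrine library remained, with median depths of 3668, 7729, 3453 and 8038.5 UMIs (unique molecular identifiers, 1 per captured transcript). Clusters were built without the 9 genes and without the other BMP pathway genes, and were named from marker lists. Fibroblast-like cells numbered 2657, 12471, 2429 and 10570 in the same order. Pericyte-like cells numbered 801, 0, 182 and 220, and smooth-muscle-like cells 317 in the ligated and 162 in the undamaged tdTomato library. Kept barcodes shared between libraries numbered at most 8, except 35 between citrine and PDGFRa. Fibroblast-like cells of the ligated tdTomato library held 47961 CPM (UMIs scaled to a common total) of the 10 fibroblast markers, against 86481 CPM in the undamaged one, and 4339 against 879 CPM of the 10 fibroblast activation markers. Their immediate early and dissociation genes summed to 27642 CPM after ligation and 20000 CPM in undamaged hearts, and their part in the results was not tested. The 468-cell ligated cluster led by Clec3b, Scara5, Efhd1 and Pi16 had the endothelial-list gene Ly6c1 and no fibroblast marker among its top 10 genes and was left unnamed. That cluster did detect 8 of the 10 fibroblast markers, at 49179 CPM, beside 484 CPM of endothelial markers. The 204 undamaged cells that share these 4 leaders fell in the fibroblast-like class. A cluster with these leaders is thus part of the undamaged but not of the ligated fibroblast-like class.

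Start regions are shown for Smad6 and Bmp4, the members over 2-fold lower after ligation for which RefSeq's table (GRCm38.p6) has an entry with no other exon upstream. The Smad6 stretch is chr9:64022050-64022249 and the Bmp4 stretch chr14:46390660-46390859, both on the minus strand, each with 190 bases before the start and the first 10 transcribed bases. Capitals mark GTCTAGAC, the palindrome of the SMAD-binding element, searched on both strands together with GGCGCC, a GC-rich element bound by BMP SMADs.
Smad6: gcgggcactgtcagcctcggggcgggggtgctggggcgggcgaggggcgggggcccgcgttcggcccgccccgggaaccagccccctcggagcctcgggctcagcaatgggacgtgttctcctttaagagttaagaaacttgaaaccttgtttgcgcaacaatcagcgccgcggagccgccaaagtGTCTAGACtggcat
Bmp4: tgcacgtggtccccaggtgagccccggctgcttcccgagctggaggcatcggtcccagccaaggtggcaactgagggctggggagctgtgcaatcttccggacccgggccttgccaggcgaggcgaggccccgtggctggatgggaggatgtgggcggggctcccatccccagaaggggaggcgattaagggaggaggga
The Smad6 palindrome spans the start itself, with 4 bases before it and 4 from it on. Of 32851 RefSeq windows of 300 bases, 70 (0.213%) hold GTCTAGAC and 3898 (11.9%) hold GGCGCC. The Bmp4 window held neither motif. GGCGCC was found in the windows of Id2, 231 bases before the start, and of Grem1, 78 bases before it. The windows of Id3 and Bmp6 held neither, which says only that these letters are not there. The windows of Id2, Id3 and Bmp6 hold annotated exon bases before the start. The first transcribed bases of the Grem1 window were found in no annotated Grem1 transcript.

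Positions are from the GENCODE M21 annotation of GRCm38 (mm10), whose gene identifiers match those in the files. Bmp2 (chromosome 2, 133552159 to 133562885), Id1 (chromosome 2, 152736251 to 152737410), Id3 (chromosome 4, 136143497 to 136145755), Bmp6 (chromosome 13, 38345107 to 38500302) and Smad7 (chromosome 18, 75367529 to 75395935) lie on the plus strand. Grem1 (chromosome 2, 113746164 to 113758646), Smad6 (chromosome 9, 63953076 to 64022059), Id2 (chromosome 12, 25093799 to 25097140) and Bmp4 (chromosome 14, 46383520 to 46390669) lie on the minus strand. Exons of Bmp4 and Bmp6 overlap those of Gm15217 and Txndc5 on the opposite strand, and the strand setting of the counting is not given in the sources used here.

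The first question was how the BMP genes stood in labelled fibroblasts 7 days after ligation. In fibroblast-like tdTomato cells the ligand Bmp4, the target Id1 and the feedback inhibitor Smad6 were each over 2-fold lower after ligation. Id1 was 3.56-fold lower (95% interval 3.18 to 3.98), Bmp4 2.46-fold (2.20 to 2.76) and Smad6 2.38-fold (1.57 to 3.64). Id2 was 1.63-fold lower (1.55 to 1.71), and Id3, by far the most abundant of the 9 in UMIs, was 1.15-fold lower (1.12 to 1.17). Each condition was 1 library of pooled hearts, so intervals cover counting error only and no test between conditions could be made.

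Of the ligands, Bmp4 had 39.8 CPM in the ligated library (487 UMIs) and 98.0 CPM in the undamaged one (890 UMIs). Bmp2 had 16.8 CPM after ligation (206 UMIs) against 23.0 CPM without (209 UMIs), a ratio of 0.731 (0.600 to 0.891). Bmp6 was near the limit of detection with 17 UMIs after ligation and 13 without, and its ratio of 0.970 had an interval of 0.444 to 2.17. Bmp4 thus gave the most UMIs of the 3 ligands in undamaged fibroblast-like cells and differed most between conditions. The antagonist Grem1, which binds BMP2 and BMP4 outside the cell, gave 1 UMI in the ligated and 0 UMIs in the undamaged fibroblast-like cells.

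Among the targets, Id1 had 35.6 CPM after ligation (436 UMIs) and 127 CPM without it (1150 UMIs). Id2 had 262 CPM after ligation and 425 CPM in undamaged hearts, and Id3 1307 CPM and 1498 CPM. The 3 Id genes therefore lay on the same side but differed in size, with intervals that did not overlap. Smad6 had 3.10 CPM after ligation (38 UMIs) and 7.37 CPM without (67 UMIs). Smad7 had 23.9 CPM after ligation and 33.5 CPM without, a ratio of 0.715 (0.607 to 0.842). No member had a ratio above 1.

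A gene entered this comparison with at least 20 UMIs in the 2 libraries together, which 8 of the 9 members passed. Of those 8, 3 were over 2-fold lower and 0 over 2-fold higher, against a background of 4.55% of 12178 genes lower and 3.42% higher. The median log2 ratio was -0.59 over the 8 members and -0.06 over all genes tested. Scaling by TMM in place of the UMI total moved the median of all genes to 0.03 and left 7 of the 8 members on the lower side, with Bmp6 at 0.04.

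**Figure D1:**
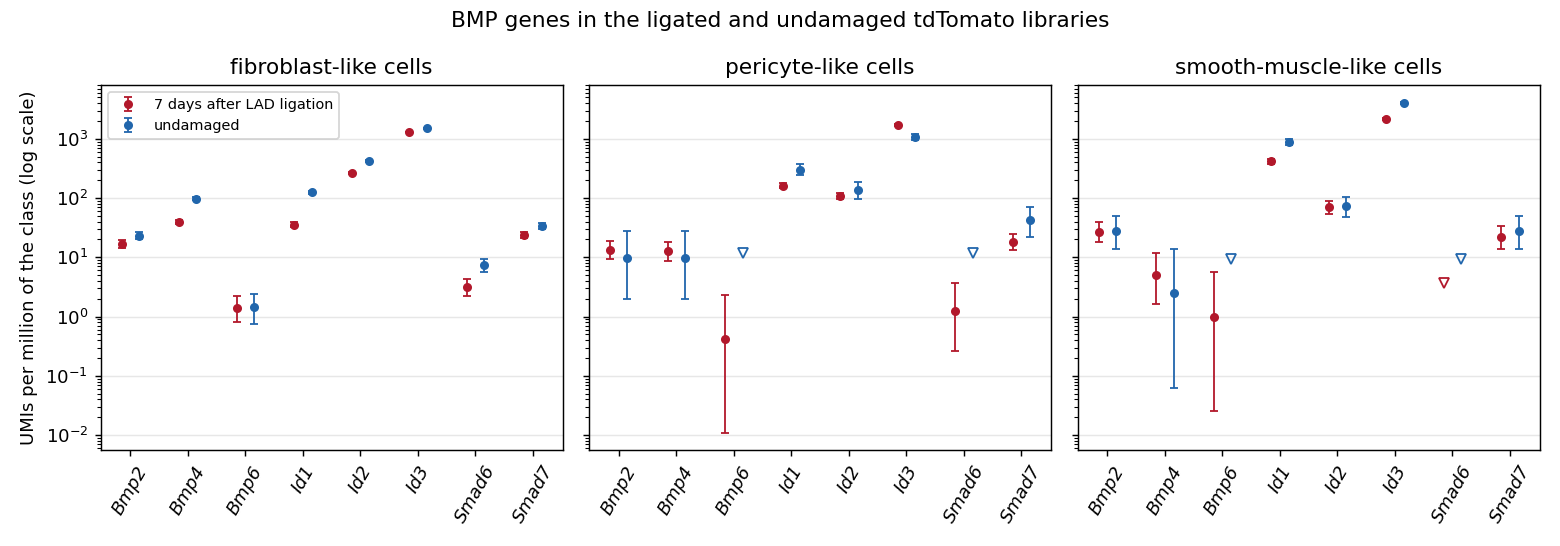
Levels of 8 members (CPM, log axis) in fibroblast-like, pericyte-like and smooth-muscle-like tdTomato cells 7 days after ligation (red) and in undamaged hearts (blue), 1 library each; bars are exact 95% Poisson intervals and open triangles the upper limits of a count of 0. Id1 is lower after ligation in all 3 classes, while Id3 is higher in pericyte-like cells only, at 1702 against 1078 CPM.

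The lower Id1 level was spread over the fibroblast-like clusters. In the 7 ligated clusters Id1 ran from 11.2 to 74.1 CPM with a median of 18.9 CPM, and in the 11 undamaged clusters from 32.7 to 337 CPM with a median of 94.2 CPM. The ranges overlapped, since 2 ligated clusters lay above the lowest undamaged one. Bmp4 ran from 16.0 to 68.3 CPM in the ligated clusters and from 40.9 to 157 CPM in the undamaged ones. The cells left unnamed in the ligated library had 7.83 CPM Id1 and 19.3 CPM Bmp4, below the values of the ligated fibroblast-like cells for both.

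For the rest of the pathway most ratios lay within 2-fold, as did 11207 of all 12178 genes tested. Of 50 other pathway genes, 36 passed the UMI minimum. Of these, 1 was over 2-fold higher after ligation and 4 were over 2-fold lower, with a median log2 ratio of -0.04. Over all genes tested, 3.42% were over 2-fold higher and 4.55% over 2-fold lower, with a median of -0.06. The list was set with earlier results of these data known. Among 9 receptors and co-receptors tested, none passed 2-fold. The type I receptor Bmpr1a had 59.9 CPM after ligation and 61.4 CPM without, a ratio of 0.976 (0.873 to 1.09). For the type II receptor Bmpr2 the ratio was 0.929, with an interval that held 1. The signal carriers Smad1, Smad5 and Smad4 had ratios of 1.10, 1.09 and 1.13, each with an interval that held 1.

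The 4 pathway genes over 2-fold lower were a target, a ligand and a pair of secreted binding proteins. Id4, the fourth Id gene, had 0.571 CPM after ligation (7 UMIs) and 4.73 CPM without (43 UMIs), 8.28-fold lower (3.69 to 21.8). Chrdl1, a chordin-like secreted BMP antagonist, was 4.67-fold lower (2.59 to 8.94) and Fst, the activin and BMP binder follistatin, 2.29-fold lower (1.85 to 2.85). The ligand Bmp5 was 4.04-fold lower (1.54 to 12.4), on only 6 UMIs after ligation and 18 without. Bmp5 was higher in vessel-wall cells. It had 42.1 CPM after ligation and 38.7 CPM without in pericyte-like cells, and 75.0 and 108 CPM in smooth-muscle-like cells. Both ratios there had intervals that held 1. Below 2-fold, Tob1, a repressor of SMAD-driven transcription, had a ratio of 0.504 (0.396 to 0.640) and the homeobox target Msx1 one of 0.614 (0.535 to 0.704). Gdf6, a ligand of the same family, was 2.01 times as high after ligation (1.29 to 3.23) with 76 and 28 UMIs, and Gdf10 1.65 times (1.21 to 2.28). The E proteins bound by Id proteins differed little, with ratios of 1.25 for Tcf3, 0.874 for Tcf4 and 0.848 for Tcf12. Leaving out the activation-marker cluster described below raised the count of genes over 2-fold lower to 6, and a minimum of 100 UMIs reduced it to 1.

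**Figure D2:**
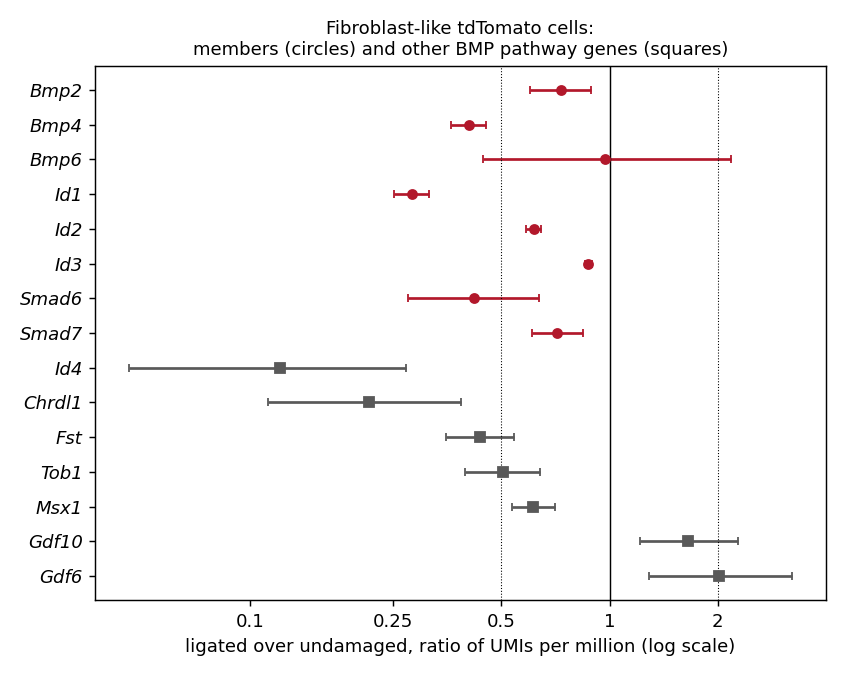
Ratio of CPM in ligated over undamaged fibroblast-like tdTomato cells (log axis) with exact 95% intervals, for 8 members (circles) and the pathway genes over 1.5-fold different with at least 50 UMIs and an interval without 1 (squares); dotted lines mark 2-fold. Every member lies at or below 1, and Id4 and Chrdl1 lie lowest of all genes shown.

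Pericyte-like and smooth-muscle-like cells were examined for the same members. Pericytes wrap capillaries, smooth muscle cells larger vessels, and both are labelled in the Hic1 lineage. Id1 was lower after ligation in both: 163 CPM against 303 CPM in pericyte-like cells, a ratio of 0.536 (0.427 to 0.679), and 418 against 885 CPM in smooth-muscle-like cells, a ratio of 0.472 (0.409 to 0.545). Id3 went in opposite directions. In pericyte-like cells it had 1702 CPM after ligation and 1078 CPM without, a ratio of 1.58 (1.41 to 1.77), and in smooth-muscle-like cells 2178 and 4059 CPM, a ratio of 0.537 (0.503 to 0.573). The 3 ligated pericyte-like clusters were not alike in Id3. The 279 cells of one had 2497 CPM, with 4032 CPM of smooth muscle and 1904 CPM of activation markers, while the 484 cells of the largest had 1019 CPM and the 38 of the smallest 1041 CPM, near the undamaged level. When cells were classed by marker UMIs instead, the pericyte-like log2 ratio of Id3 was -0.03, so the higher level depended on how the class was drawn. In smooth-muscle-like cells immediate early and dissociation genes summed to 20040 CPM after ligation and 34006 CPM without, and interferon genes to 291 and 685 CPM. In pericyte-like cells the immediate early sums were 9470 and 11770 CPM, and the part of these genes in the Id levels was not tested.

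Smad7 was 18.1 CPM (43 UMIs) in ligated and 42.0 CPM (13 UMIs) in undamaged pericyte-like cells, 2.32-fold lower (1.14 to 4.40). Id2 did not differ beyond counting error in either vessel class, with ratios of 0.803 (0.578 to 1.14) and 0.965 (0.618 to 1.54). Smad6 gave 3 and 0 UMIs in pericyte-like cells and 0 in all smooth-muscle-like cells, and no fold is given. Of the 6 members with enough UMIs in pericyte-like cells, 1 was over 2-fold lower against a background of 5.93% of 8920 genes, and 0 were over 2-fold higher against 8.46%. In smooth-muscle-like cells 1 of 5 members, Id1, was over 2-fold lower against a background of 4.41% of 6616 genes and 0 were higher against 6.74%. Of the other pathway genes, 2 of 26 tested in pericyte-like cells were over 2-fold higher and 0 lower, and 0 of 22 in smooth-muscle-like cells were higher and 1 lower. The ligated pericyte-like cells were deeper, with a median of 2385 UMIs against 1588, and the part of depth was not tested.

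Id1 and Id3 were highest in other cell classes than Bmp4 and Id2. In undamaged tdTomato cells Id1 was highest in the 13 endothelial-like cells, at 3430 CPM (2751 to 4226), then in smooth-muscle-like cells at 885, pericyte-like cells at 303 and fibroblast-like cells at 127 CPM. Endothelial cells are known for high Id1, and here the class rests on 88 Id1 UMIs. Id3 was highest in smooth-muscle-like cells, at 4059 CPM, followed by 2651 in endothelial-like, 1498 in fibroblast-like and 1078 CPM in pericyte-like cells. Id2 had 425 CPM in fibroblast-like, 195 in endothelial-like (5 UMIs), 136 in pericyte-like and 72.5 CPM in smooth-muscle-like cells. Bmp4 had 98.0 CPM in fibroblast-like cells and 39.0 CPM, on 1 UMI, in endothelial-like cells. It had 9.68 CPM in pericyte-like cells (3 UMIs, 2.00 to 28.3 CPM) and 2.50 CPM in smooth-muscle-like cells (1 UMI, 0.0633 to 13.9 CPM).

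The few Bmp4 UMIs of vessel-wall cells are set beside the fibroblast marker RNA in the same cells. After ligation Bmp4 stood at 31.7% of its fibroblast-like level in pericyte-like cells, on 30 UMIs, beside 14.5% for the markers, and at 12.6% in smooth-muscle-like cells, on 5 UMIs, beside 5.35%. The marker share of the ligated pericyte-like cells rested largely on its 38-cell cluster, with 40707 CPM of fibroblast markers against 1561 CPM in the 484-cell and 4604 CPM in the 279-cell cluster. Bmp4 had 24.7, 13.5 and 9.12 CPM in these clusters in the same order, on 6, 14 and 10 UMIs. In undamaged hearts Bmp4 stood at 9.89% in pericyte-like and 2.55% in smooth-muscle-like cells, beside 8.66% and 3.11% for the markers, and its 3 UMIs and 1 UMI are too few to tell it from them. Endothelial markers summed to 116 CPM in the ligated and 170 CPM in the undamaged fibroblast-like cells.

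Members were also compared along fibroblast activation within a library. Activation markers such as periostin and Cthrc1 rise when fibroblasts respond to injury. Fibroblast-like clusters with at least 9000 CPM of the 10 markers, a limit set after seeing the data, were 1 cluster of 414 cells in the ligated tdTomato library and 3 clusters of 3581 cells in the PDGFRa library. In both libraries they had less Bmp2 and Bmp4 and more Id1, Id3 and Smad7 than the other fibroblast-like cells. Members did not enter the clustering, and cells of 1 library are not replicates, so these ratios are descriptions.

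In the ligated tdTomato library the activation-marker cluster had 16.0 CPM Bmp4, against 49.3 CPM in the other fibroblast-like cells, a ratio of 0.324 (0.241 to 0.429). Bmp2 had 7.41 and 20.6 CPM, a ratio of 0.360 (0.229 to 0.545). Id1 had 74.1 CPM in the cluster and 20.1 CPM elsewhere, a ratio of 3.68 (3.03 to 4.48). Both ligands were thus low where Id1 was high. Smad7 had 45.1 and 15.4 CPM (2.92, 2.30 to 3.70), Smad6 5.42 and 2.17 CPM (2.49, 1.25 to 4.98), Id3 1888 and 1075 CPM (1.76, 1.70 to 1.81) and Id2 309 and 243 CPM (1.27, 1.18 to 1.37). The cells of this cluster had a median of 7752 UMIs, above the 3935 of all fibroblast-like cells, and the part of depth was not tested.

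The PDGFRa library gave like values in separate hearts. Hearts with hashtags 1 and 2 held 1160 and 1708 activation-cluster cells, while hashtag 3 held 0 and hashtag 4 held 6. The 3 activation clusters had median depths of 15117, 17664.5 and 12204 UMIs. All fibroblast-like cells of the library had 7698, and the part of depth was not tested here either. In the heart with hashtag 1 Id1 had 52.5 CPM in the activation clusters and 22.9 CPM in the other fibroblast-like cells (ratio 2.29, 1.95 to 2.71), and with hashtag 2 it had 132 and 35.8 CPM (3.69, 3.35 to 4.08). Bmp4 had 10.0 and 57.0 CPM with hashtag 1 (0.176, 0.147 to 0.210) and 13.7 and 59.1 CPM with hashtag 2 (0.232, 0.204 to 0.263). Both hearts thus had over 4-fold less Bmp4 in these clusters. Smad7 had ratios of 2.43 and 3.07 and Id3 of 1.81 and 2.10 in the hearts with hashtags 1 and 2. Id2 went the other way from the tdTomato library, with ratios of 0.751 (0.711 to 0.793) and 0.854 (0.819 to 0.891).

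**Figure D3:**
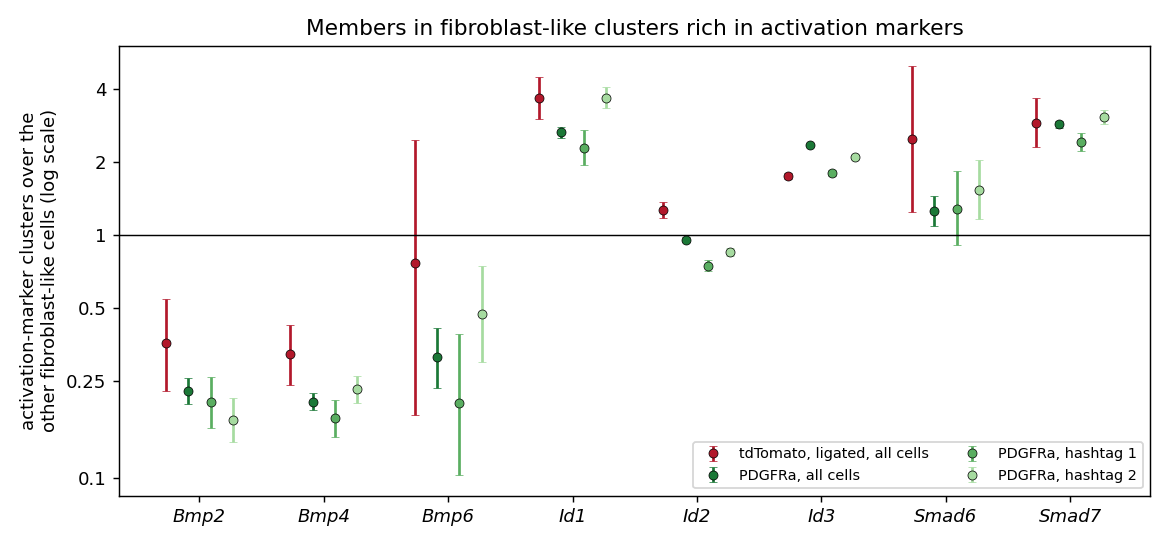
Ratio of CPM in activation-marker clusters over the other fibroblast-like cells (log axis) with exact 95% intervals, in the ligated tdTomato library, the whole PDGFRa library and its hearts with hashtags 1 and 2. Bmp2 and Bmp4 lie below 1 and Id1, Id3 and Smad7 above 1 in all 4 sets of cells, while Id2 lies on both sides. The whole PDGFRa library includes the cells of both hearts shown, so the 4 sets are not separate.

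Activation-marker clusters differed among themselves. In the PDGFRa library the 1524 cells led by Ptx3 and Comp had 116 CPM Id1, 2189 CPM Id3 and 258 CPM Smad7, the highest of its 11 fibroblast-like clusters for each. The 1048 cells led by C1qtnf3, Comp and Spp1 held the most activation marker RNA, 21419 CPM, but 85.0 CPM Id1, and had the least Bmp2 and Bmp4, at 3.29 and 6.63 CPM. With finer clustering (Leiden resolution 2) the tdTomato cluster with the most activation marker RNA had log2 ratios of 0.06 for Id1 and 0.03 for Id3, so Id1 and Id3 were not higher where these markers were highest. Its Smad7 and Bmp2 log2 ratios were 0.86 and -3.15. The same cluster choice in the PDGFRa library gave 0.28 for Id1, 0.01 for Id3, 0.71 for Smad7 and -2.17 for Bmp2.

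Removing the activation-marker cluster from the ligated tdTomato library, a choice made after seeing the data, widened the difference from undamaged cells for Id1 and Smad7 and narrowed it for Bmp4. The log2 ratio of ligated over undamaged fibroblast-like cells was -2.65 for Id1 without the cluster and -1.83 with it, and -1.12 and -0.48 for Smad7. For Bmp4 it was -0.99 without and -1.30 with the cluster, and for Bmp2 -0.16 and -0.45. The count of members over 2-fold lower was 3 either way, with Smad7 in the place of Bmp4.

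Across the 4 PDGFRa hearts the members varied up to 3.11-fold in fibroblast-like cells. In the order of hashtags 1 to 4, Bmp4 had 24.0, 28.1, 74.6 and 61.7 CPM and Bmp2 12.5, 12.2, 20.7 and 21.2 CPM. Smad7 had 168, 192, 81.7 and 71.4 CPM and Id3 1272, 1590, 718 and 545 CPM. Id1 had 43.7, 102, 58.0 and 37.1 CPM, so only the heart with hashtag 2 stood high for it. Id2 ranged from 175 to 240 CPM with a median of 220 CPM, Smad6 from 5.84 to 8.14 CPM and Bmp6 from 1.81 to 3.94 CPM. The intervals of Smad6 overlapped in all 4 hearts. Activation markers summed to 11165, 11726, 1184 and 1220 CPM in the same order, and median depth was 10913.5, 10750.5, 6438 and 6798 UMIs, whose part was not tested. Of the kept cells, 2128, 3460, 569 and 1115 carried 1 clear hashtag.

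**Figure D4:**
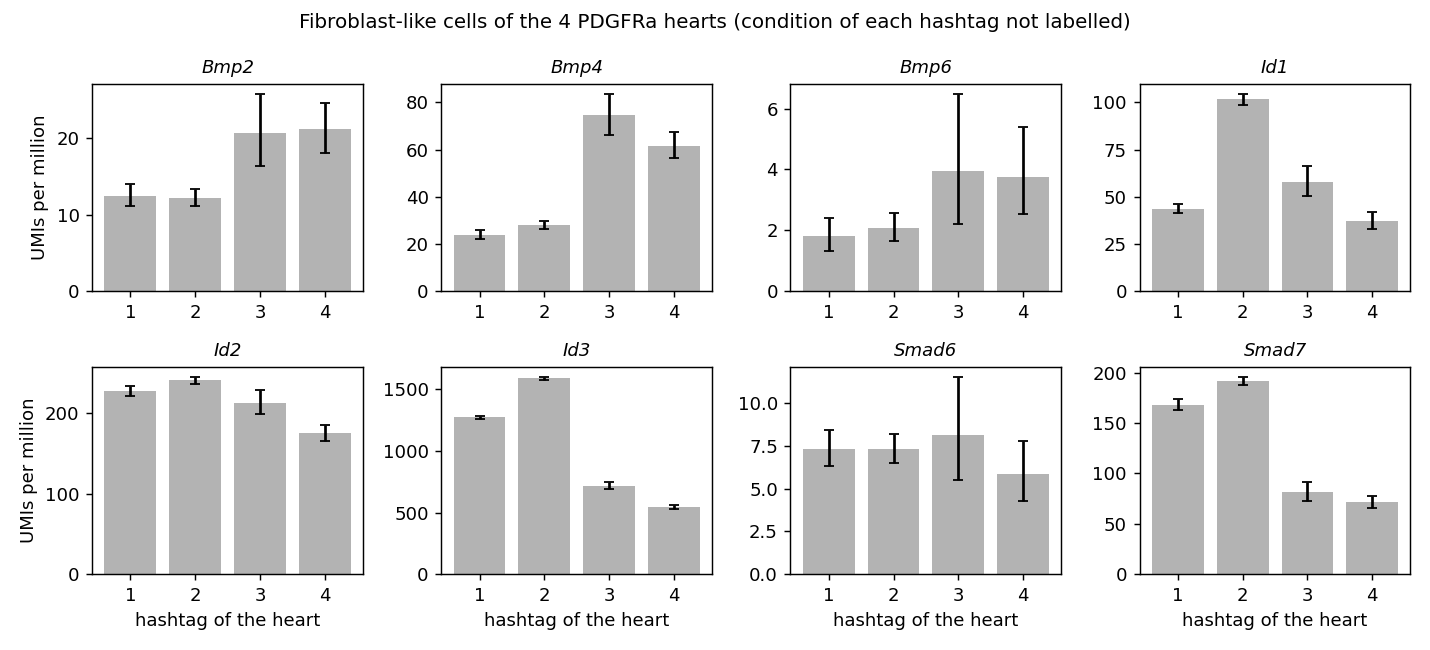
CPM of 8 members in fibroblast-like cells of each of the 4 hashed PDGFRa hearts, whose condition is not given per hashtag; bars start at 0 and error bars are exact 95% Poisson intervals. Bmp4 runs from 24.0 to 74.6 CPM and Smad7 from 71.4 to 192 CPM.

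Among fibroblast-like cells of both undamaged libraries, the inhibitory SMAD Smad6 was highest in 1 of the clusters led by Cytl1. In the citrine library the cluster with the most Smad6, 742 cells led by Cytl1, Ahsg, Igfbp3 and Smoc1, had 57.1 CPM against 6.11 CPM in the other fibroblast-like cells. In the undamaged tdTomato library the cluster with the most Smad6, 244 cells led by Cytl1, Epyc, Slc38a5, Ahsg and Igfbp3, had 35.6 CPM against 4.59 CPM elsewhere. In the PDGFRa library, which mixes conditions, Smad6 was highest in the 1024 cells led by Cytl1 and Dio2, at 15.1 CPM (12.4 to 18.3). Not all Cytl1-led clusters were high: those led by Cytl1 and Dio2 had 7.45 CPM in the citrine library (966 cells) and 3.93 CPM in the undamaged tdTomato library (314 cells), below the 5.53 CPM that was the median of its 11 clusters. The citrine and tdTomato clusters were picked for Smad6, so its own ratio is a description, but the other members were not used in the choice. In the citrine library Id1 had 137 CPM in the cluster and 27.3 CPM elsewhere, a ratio of 5.02 (4.63 to 5.44). Id3 was 3.01 times (2.94 to 3.08), Id2 2.22 times (2.09 to 2.36) and Smad7 2.07 times (1.93 to 2.23) as high in the cluster. Bmp2 stood lower there, at 0.472 times (0.378 to 0.583), and Bmp4 at 0.623 times (0.532 to 0.726).

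The 3 citrine hearts could be read apart in the cells with 1 clear hashtag. These numbered 763, 2479 and 1347 of the 10838 kept cells, and every value per citrine heart rests on them. Id1 had 234, 114 and 132 CPM in the cluster in hearts 1 to 3, against 25.8, 28.6 and 23.5 CPM in the other fibroblast-like cells of the same hearts. Id3 had 2392, 1588 and 1190 CPM in the cluster and 726, 581 and 483 CPM elsewhere. Smad7 had 223, 89.9 and 128 CPM in the cluster and 55.0, 63.2 and 66.7 CPM elsewhere. Each of these 3 genes was higher in the cluster in 3 of 3 hearts, without overlap between the values in and outside it. The cluster had 103, 146 and 68 cells in the 3 hearts. In the undamaged tdTomato cluster Id2 had a ratio of 2.18 (2.01 to 2.37), Smad7 of 1.95 (1.41 to 2.66), Id1 of 1.79 (1.51 to 2.10), Id3 of 1.63 (1.55 to 1.71), Bmp4 of 0.416 (0.288 to 0.583) and Bmp2 of 0.249 (0.0800 to 0.591). The undamaged tdTomato cluster with the most Id1 was another one, 138 cells led by Cytl1, Wif1 and Comp, at 337 CPM (291 to 387). It also had the second highest Smad6, 18.8 CPM (9.38 to 33.6), overlapping the 23.9 to 51.2 CPM of the cluster picked for Smad6. Its Smad7 was the highest, at 85.4 CPM against 60.2 CPM in the picked cluster.

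In the 2 hashed libraries, clusters led by Pi16, Efhd1 and Sema3c stood at the opposite end for the Id genes and Smad7. In the citrine library the 1221 cells of that cluster had the lowest Id1, Id2, Id3 and Smad7 of 13 clusters, at 9.23, 52.9, 258 and 40.2 CPM, and the highest Bmp2, at 51.2 CPM (47.4 to 55.2). In the PDGFRa library the 283 cells with the same leaders had the lowest Id1, Id2, Id3 and Smad7 of 11 clusters, at 5.09, 80.7, 254 and 47.0 CPM, and the highest Bmp2, at 46.2 CPM (38.3 to 55.4). In the undamaged tdTomato library the 204 cells with these leaders again held the most Bmp2, 40.9 CPM (28.8 to 56.4), and the least Id2 and Bmp4, 211 and 40.9 CPM. Their Id1, Id3 and Smad7, at 83.0, 954 and 31.0 CPM, were not the lowest of the 11 clusters, and Smad7 was above the median of 30.1 CPM. The unnamed ligated tdTomato cluster, led by Pi16 and Efhd1 among others, had 40.5 CPM Bmp2, above the 33.3 CPM of the highest of the 7 ligated fibroblast-like clusters, and 7.83 CPM Id1, below the 11.2 CPM of the lowest. Bmp4 was highest elsewhere, at 112 CPM in the 681 citrine cells led by Lepr and at 111 CPM in the 2048 PDGFRa cells led by Cxcl14. The libraries were clustered apart and were not compared by test.

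The citrine hearts also allowed pericyte-like and fibroblast-like cells to be compared within the same animals. Of 10597 genes tested with edgeR's quasi-likelihood test with the heart as block and Benjamini-Hochberg adjustment over all genes, 4.03% were higher and 5.67% lower in pericyte-like cells at an adjusted p under 0.05. Of the 7 members that passed the filter, 1 was higher, Id1, and 1 lower, Id2, and 6 had an unadjusted edgeR p under 0.05, as did 17.9% of all genes tested. Id1 had 134, 179 and 59.4 CPM in pericyte-like cells of hearts 1 to 3, against 52.7, 33.4 and 28.5 CPM in fibroblast-like cells. It was higher in 3 of 3 hearts, with a log2 fold change of 1.66 ± 0.38 (SE) and an adjusted p of 0.000242 by edgeR. The pericyte-like levels rested on 7, 153 and 3 Id1 UMIs. In heart 3 their interval of 12.2 to 173 CPM held the fibroblast-like level. Id2 had 172, 35.1 and 59.4 CPM in pericyte-like and 108, 119 and 85.1 CPM in fibroblast-like cells. Its log2 fold change was -1.12 ± 0.39 with an edgeR adjusted p of 0.0419, and it was lower in 2 of 3 hearts. The pericyte-like levels rested on 9, 30 and 3 Id2 UMIs. Their intervals in heart 1 (78.7 to 327 CPM) and heart 3 (12.2 to 173 CPM) held the fibroblast-like levels, so only heart 2 differed beyond counting error.

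The remaining members missed the threshold. Id3 had 1932, 1005 and 950 CPM in pericyte-like cells and 941, 639 and 516 CPM in fibroblast-like cells, higher in 3 of 3 hearts, with a log2 fold change of 0.55 ± 0.22 and an edgeR adjusted p of 0.107. Bmp2, Bmp4 and Smad7 had less in pericyte-like cells of all 3 hearts, with log2 fold changes of -1.22, -1.28 and -0.72 and edgeR adjusted p of 0.237, 0.108 and 0.373. In hearts 1 and 3 these levels rested on 1 and 1 UMIs for Bmp2, 1 and 2 for Bmp4 and 3 and 2 for Smad7 in pericyte-like cells, too few to give a direction, and heart 2 gave 12, 18 and 41. In fibroblast-like cells the 3 hearts averaged 27.7 ± 4.4 CPM Bmp2, 41.1 ± 12.1 CPM Bmp4 and 70.4 ± 6.1 CPM Smad7 (SD, n = 3). Smad6 had 19.1, 0 and 0 CPM in pericyte-like cells and 16.6, 8.02 and 6.10 CPM in fibroblast-like cells, with an edgeR adjusted p of 0.0901.

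Heart 2 gave 182 of the pericyte-like cells and hearts 1 and 3 only 14 and 11. The few cells also differed in kind: smooth muscle markers reached 24222, 1687 and 17669 CPM in hearts 1 to 3, beside 11805, 16866 and 12050 CPM of pericyte markers. Fibroblast markers reached 5931, 23779 and 10051 CPM in the pericyte-like and 60106, 63150 and 54429 CPM in the fibroblast-like cells. The pericyte-like group of hearts 1 and 3 thus held more smooth muscle than pericyte marker RNA. Without heart 2 Id1 had a log2 fold change of 0.86 and an edgeR adjusted p of 0.636, and Id2 -0.14 and 0.923. With cells classed by marker UMIs Id1 had 1.72 with an edgeR adjusted p of 0.0594. Without the heart as block 3 members were lower, and with DESeq2, 0 were.

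Among the 34 other pathway genes tested, 3 were higher and 5 lower in pericyte-like cells by edgeR. Over all 10597 genes tested, 4.03% were higher and 5.67% lower. Chrdl1 had 325, 4.67 and 218 CPM in pericyte-like cells and 1.63, 1.80 and 1.44 CPM in fibroblast-like cells, and Id4 had 210, 12.9 and 178 CPM and 3.59, 4.42 and 4.91 CPM. Both had higher values in pericyte-like cells of 3 of 3 hearts. In heart 2, with 182 of these cells, Chrdl1 rested on 4 UMIs in 3 cells, too few to give a direction. Id4 rested there on 11 UMIs. The high values of hearts 1 and 3 came from 17 and 11 Chrdl1 UMIs, found in 5 of 14 and 4 of 11 cells, and from 11 and 9 Id4 UMIs. Smooth-muscle-like tdTomato cells gave 0 Chrdl1 UMIs in both libraries and 2 Id4 UMIs after ligation and 1 without. Pericyte-like tdTomato cells gave 1 Chrdl1 UMI after ligation and 4 without, and 8 and 6 Id4 UMIs. The third higher gene, Hey1, a hairy-related repressor, had a log2 fold change of 1.96 ± 0.64 with an edgeR adjusted p of 0.0251. It rested on 1, 26 and 0 UMIs in pericyte-like cells of hearts 1 to 3 and was higher in 2 of 3 hearts. Among the genes that passed, the largest falls were in the extracellular modulators Bmper (log2 fold change -3.38, edgeR adjusted p 0.000155) and Chrd (-1.65, 0.0333) and the co-receptor Rgmb (-1.46, 0.0247), and the secreted Fstl1 and the E protein Tcf4 were also lower. In pericyte-like cells of hearts 1 to 3, Bmper had 0, 4 and 0 UMIs, Chrd 1, 13 and 0 and Rgmb 0, 26 and 2. Those of hearts 1 and 3 are too few to give a direction. Fst (log2 fold change -2.38) and Gdf6 had fitted changes larger than that of Chrd and missed the threshold, with edgeR adjusted p of 0.0655 and 0.162.

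**Figure D5:**
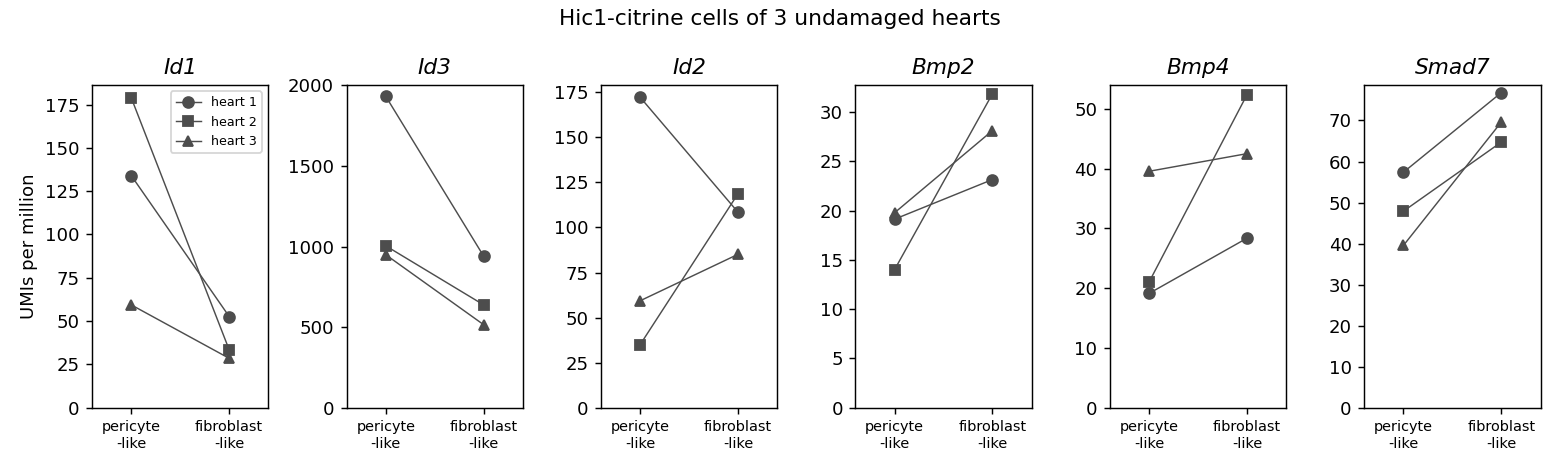
CPM of 6 members in pericyte-like and fibroblast-like cells of the 3 citrine hearts, lines joining values of the same heart; axes start at 0. Id1 and Id3 are higher in pericyte-like cells of all 3 hearts, Id1 on only 7 and 3 UMIs in hearts 1 and 3. The points of Bmp2, Bmp4 and Smad7 lie lower, on at most 3 UMIs each in hearts 1 and 3.

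Over the 49 clusters of at least 50 cells in the 4 libraries, which differ in depth and barcode design, Id1 and Id3 had a Pearson r of 0.68 in log2(CPM + 1), Smad6 and Smad7 0.57, Id2 and Id3 0.51 and Id1 and Id2 0.13. Bmp2 and Id1 had an r of -0.35 and Bmp4 and Id1 -0.23, given as descriptions. The genes most like each member were Ifngr1 (0.89), Cd83 and Aldh1a1 for Bmp4, and Olfml2a (0.73), Mturn and Pgf for Bmp2. For Id1 they were Ank3 (0.83), Chka and Mamdc2, for Id2 1200007C13Rik (0.81), Icam1 and Fgl2, and for Id3 Ppp1r15a (0.82), Idh2 and Irf1. For Smad6 they were Papss2 (0.79), Fam26e and Smoc1, and for Smad7 Ctgf (0.85), Eid1 and Tnrc18. Over the 41 fibroblast-like clusters the summed immediate early genes had an r of 0.40 with both Id2 and Id3 and -0.13 with Id1.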

How the data were processed

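The authors deposited 1 matrix of UMI counts for each library, which Cell Ranger had made against a changed mm10 reference, per the labels' protocols. Version 3.0.2 wrote the citrine and PDGFRa counts per the file headers, and Seurat 2.1 is named in the submitters' processing notes. The counts are whole numbers and not normalised. All libraries are labelled as the 3' kit v2, but the tdTomato libraries carry another barcode set than the hashed ones, so levels across these pairs are only set side by side.

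Cells needed at least 500 genes, 1000 UMIs and no more than 10% of UMIs from mitochondrial genes. Clustering was done library by library (scanpy 1.11.5, 2000 variable genes, 30 components, 20 neighbours, Leiden resolution 1), without the members and 50 pathway genes. A cluster took the class of which it detected the largest share of markers, and needed 3 markers. Between pericytes and smooth muscle, the list whose mean level was higher relative to all clusters decided. Clusters with at least 6 of the 8 cycling markers were set apart as cycling, and a cluster with more markers of another class than of its own among its top 10 genes stayed unnamed. A cell belonged to a heart with at least 20 hashtag UMIs, 80% of them on 1 hashtag. No doublet caller was run, and cells with several hashtags stayed in library totals.

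UMIs were summed per class and scaled to CPM of the class total. Ratios carry exact 95% intervals, and levels exact Poisson intervals, of counting error only. A gene with at least 20 UMIs in the 2 sums and over 2-fold different is counted as higher or lower, and no fold is given where both counts are at most 3. The citrine test used edgeR 4.0.16 (TMM, filterByExpr) on counts per heart and class, with DESeq2 1.42.0 as an alternative. The SE beside an edgeR change is that change divided by the square root of its F statistic, not a spread measured over the hearts. Hearts are separate animals and both classes come from each, so the heart is a block, although deviations from the class means correlated only 0.03 to 0.09 between classes of a heart. The edgeR step was tried on simulated counts with the same mean profile in every heart, and the ratio intervals on Poisson counts. Neither trial covers the different cell make-up of the pericyte-like groups of the hearts. Named pathway genes were those over 1.5-fold different with at least 50 UMIs and an interval without 1, or the 6 with the largest edgeR changes, and 3 most similar genes were named per member. Bmp5, Bmpr1a, Bmpr2, Fstl1, Smad1, Smad4, Smad5, Tcf3, Tcf4 and Tcf12 were added after their values were seen. The members and lists were chosen with earlier results of these data known.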

Additional observations from a re-analysis of the deposited data

Results flagged for a closer look

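Id3 differed in direction between cell classes of the tdTomato libraries, with 1 library a condition, so the difference between classes was not tested. Its ratio of ligated over undamaged cells was 1.58 in pericyte-like, 0.872 in fibroblast-like and 0.537 in smooth-muscle-like cells, each with a counting interval that excluded 1. With pericyte-like cells drawn from marker UMIs the log2 ratio was -0.03.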

How the results depend on the processing

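The counts of 3 members over 2-fold lower and 0 higher in fibroblast-like tdTomato cells held under all 10 alternatives tried, and no called value changed direction. Of 79 recomputed member ratios in these cells, 25 moved outside their counting interval. The cause of the changes below was not tested. Pathway genes over 2-fold lower numbered 1 with at least 100 UMIs, and those higher numbered 0 with all kept cells, without the 5% deepest cells, with marker-classed cells, with means over cells and with the unnamed cluster. Pericyte-like members over 2-fold higher numbered 1 with at most 5% mitochondrial UMIs, with marker-classed cells and with means over cells, and smooth-muscle-like members lower numbered 0 with means over cells. In the citrine test, genes higher in pericyte-like cells numbered 427 and lower 601 in the reported fit, 742 higher with no filter, 714 and 1036 without the replicate block, 229 lower with DESeq2 and 978 lower with marker-classed cells. Without each heart in turn the higher genes ranged from 5 to 424 and the lower from 0 to 357, heart 2 giving the lowest of both. Members higher numbered 2 with RLE factors, 0 with marker-classed cells and 0 to 1 without each heart. Members lower numbered 3 without the replicate block and with marker-classed cells, 0 with DESeq2, with no filter and with the 90% hashtag limit, and 0 to 1 without each heart. Depth limits Bmp6, Grem1 and Smad6, which gave at most 67 UMIs in fibroblast-like cells of a tdTomato library. Bmp6 lay on either side of no difference, within its interval.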

Other observations

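The values of the 4 PDGFRa hearts fell into pairs for some members. Hearts with hashtags 1 and 2 had 24.0 and 28.1 CPM Bmp4, 168 and 192 CPM Smad7 and 1272 and 1590 CPM Id3, and hearts with hashtags 3 and 4 had 74.6 and 61.7 CPM Bmp4, 81.7 and 71.4 CPM Smad7 and 718 and 545 CPM Id3. The activation markers split the same way, at 11165 and 11726 against 1184 and 1220 CPM. Id1 did not, since 43.7 CPM with hashtag 1 lay between 58.0 and 37.1 CPM with hashtags 3 and 4. In the fibroblast-like cells outside the activation clusters, hashtags 1 and 2 had 57.0 and 59.1 CPM Bmp4 and 22.9 and 35.8 CPM Id1. Smad7 and Id3 were thus higher in the hearts rich in activation markers. In fibroblast-like tdTomato cells both were lower after ligation, with ratios of 0.715 and 0.872. The hearts carry no condition label, so whether the libraries differ in direction could not be tested.

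Among rare cells, the 8 epicardial-like citrine cells had 548 CPM Id1 (391 to 746) and 95.8 CPM Smad6 (38.5 to 198), both on few UMIs, 40 and 7. The 96 PDGFRa cells of a cluster led by Cxcl13, Dmkn, Serpinb2 and Clu held 6 of the 8 cycling and 2 of the 8 epicardial markers, at 733 and 302 CPM. They had 64.0 CPM Id1, 902 CPM Id3 and 7.00 CPM Bmp4, and the 40 cycling citrine cells had 46.7 CPM Id1 and 57.0 CPM Bmp4. Grem1 was listed with 1 UMI in the kept cells of the ligated tdTomato library and 2 in those of the PDGFRa library, against 0 in those of the undamaged tdTomato and citrine libraries.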
